A study of Mus musculus with 6 samples.

Results

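Homeostatic microglia nuclei are described here in mouse hippocampus across 6 genotypes that combine tau P301S, human APOE4 or no Apoe, and Trem2 present or deleted. A nucleus was a member when it had at least 3 unique molecular identifiers (UMIs, each counting 1 captured RNA molecule) summed over the 7 homeostatic markers P2ry12, Tmem119, Slc2a5, Selplg, Upk1b, Siglech and Il7r. It also had to have 0 UMIs over 10 genes of other states: Gpnmb, Lpl, Itgax, Cst7, Spp1, Apoe, Oasl2, Ifi204, Mrc1 and F13a1. Of the 31738 nuclei with at least 200 detected genes and at most 5% mitochondrial UMIs, 9244 were members, or 29.1%. These 17 genes chose the members, so their own values below are descriptions with no test.

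Nuclei were taken at 9.5 months, stained for the myeloid factor PU.1, sorted and sequenced with the 10x Genomics v3.1 chemistry. Each genotype was 1 library from the pooled hippocampi of 3 mice. P301S/E4 carried tau P301S and human APOE4, P301S/EKO carried tau P301S and no Apoe, and E4 carried APOE4 without tau P301S. Each background was sampled as TREM2+ and as TREM2-, and sets of 6 values below give P301S/E4 first, then P301S/EKO, then E4, each as TREM2+ followed by TREM2-. P301S is a tau mutation that causes inherited tau disease in people. The promoter of the tau transgene is not given in the sources used here, and no library came from wild-type mice. A difference between a pair of libraries therefore has no replicate check, and its 95% interval covers counting error only.

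Homeostatic microglia survey healthy brain tissue through receptors such as P2RY12, which senses nucleotides, and CX3CR1, which binds a neuronal chemokine. Their programme is maintained by TGF-beta and CSF1R signalling. Near pathology, mouse microglia enter a disease-associated (DAM) state in which these genes are lowered and lipid-handling and lysosomal genes are raised in stages. TREM2 is a lipid-sensing receptor needed for the later DAM stage, and APOE is among the genes that DAM microglia induce.

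The members by library numbered 325, 748, 1151, 1463, 2534 and 3023, with 275189, 715493, 1109384, 1043384, 1854140 and 2483394 UMIs. Their median UMI counts were 781, 871.5, 838, 658, 614 and 746. With the fewest UMIs, P301S/E4/TREM2+ had the lowest precision. The lowest UMI count of a member was 503, 507, 500, 258, 413 and 438, since the deposited nuclei started at different depths. Pairs of libraries shared 5 to 13 cell barcodes, with 3723 nuclei deposited for the smallest library. The sort gate left out doublets per the labels, no caller was run here, and doublets may remain among the members. Mitochondrial UMIs were 0.432%, 0.658%, 1.04%, 0.763%, 1.11% and 1.25% of member UMIs.

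The label was checked against other cell types, using levels in CPM, counts scaled to a common total of member UMIs per library, summed over each marker list. Of 10 T, NK and B cell markers, 7 had 0 UMIs in every library, which allows up to 0.401 CPM, and the list summed to between 8.63 and 19.6 CPM. Of 9 monocyte markers, Ly6c2 and Plac8 were also at 0, while Ccr2 was detected in every library at 10.5 to 26.6 CPM. The monocyte list summed to between 19.4 and 64.3 CPM, highest in P301S/E4/TREM2-. Neuron markers summed to 160, 60.1, 124, 154, 406 and 208 CPM, with Meg3 alone at 249 CPM in E4/TREM2+. Astrocyte markers summed to 261 to 531 CPM, oligodendrocyte markers to 123 to 219 CPM, and vascular and fibroblast markers to 32.4 to 72.1 CPM. The border-associated macrophage list was 225 to 496 CPM. It was nearly all Stab1, at 215 to 468 CPM, while Lyve1 and Cbr2 were at most 2.01 CPM. Spi1, which encodes PU.1, was at 83.6, 85.3, 76.6, 105, 110 and 95.8 CPM. All 16 microglia identity genes were detected.

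The share of passing nuclei that were members was lowest with tau and APOE4 and highest with APOE4 alone. It was 5.25% (exact binomial 95% interval 4.71 to 5.84) in P301S/E4/TREM2+ and 10.7% (9.97 to 11.4) in P301S/E4/TREM2-. Without Apoe it was 32.1% (30.6 to 33.7) in P301S/EKO/TREM2+ and 29.0% (27.7 to 30.2) in P301S/EKO/TREM2-. Without tau P301S it was 49.8% (48.4 to 51.2) in E4/TREM2+ and 62.6% (61.2 to 64.0) in E4/TREM2-. Since deeper nuclei reach 3 marker UMIs more easily, each nucleus was also thinned to 500 UMIs, which left out 1827, 1488 and 417 shallower nuclei of P301S/EKO/TREM2-, E4/TREM2+ and E4/TREM2-. The shares were then 3.96%, 7.14%, 20.4%, 23.8%, 42.1% and 49.1%. The backgrounds kept their order, while the order of TREM2+ and TREM2- within P301S/EKO turned.

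**Figure D1:**
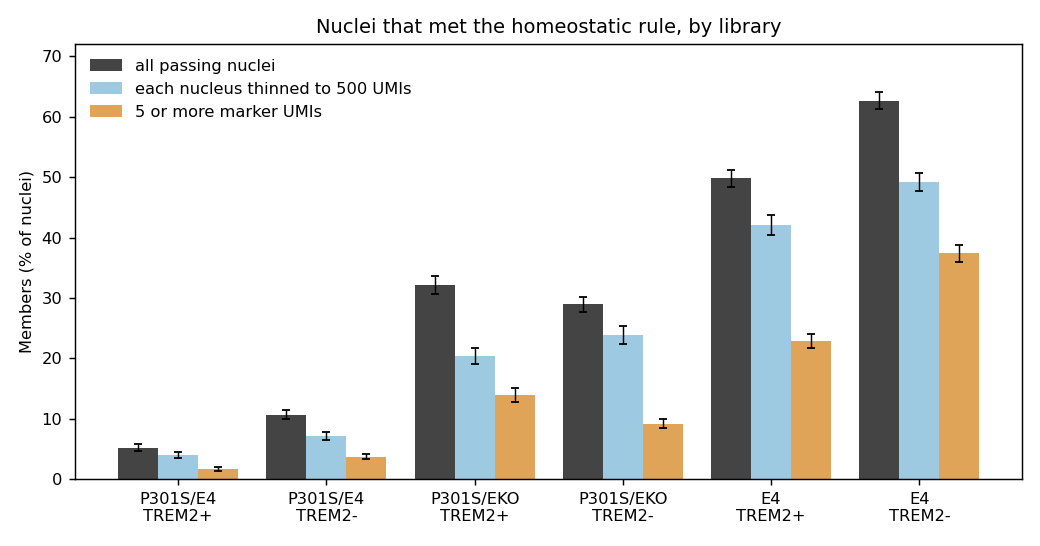
Share of nuclei in each library that met the homeostatic rule (y axis, percent of nuclei), for all passing nuclei, after thinning each nucleus to 500 UMIs, and with 5 or more marker UMIs required. Whiskers are exact binomial 95% intervals for counting error. The P301S/E4 libraries are lowest (5.25% and 10.7%) and the E4 libraries highest (49.8% and 62.6%) in all 3 versions.

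The exclusion genes, Apoe among them, bear on this share. Among nuclei with 3 or more marker UMIs, an Apoe UMI was seen in 54.3%, 48.8%, 1.40%, 0.71%, 6.14% and 6.82%. The same nuclei held an Ifi204 UMI in 24.3%, 26.0%, 20.7%, 7.52%, 1.37% and 1.38%. With Apoe left out of the exclusion genes the member share was 9.30%, 17.6%, 32.5%, 29.1%, 52.5% and 66.4%, and with all exclusion genes ignored it was 21.4%, 36.0%, 49.7%, 33.7%, 54.7% and 69.0%. P301S/E4 members are thus nuclei without an Apoe UMI in libraries where Apoe was abundant, whereas P301S/EKO nuclei lacked Apoe by genotype. Just inside the marker threshold, at 3 marker UMIs, stood 140, 293, 392, 623, 791 and 622 nuclei. Just outside, at 2 marker UMIs, stood 268, 395, 425, 880, 866 and 567. Interferon response genes outside the rule summed to 2730, 3518, 2240, 1795, 1380 and 1077 CPM just inside and to 2403, 3465, 2307, 1779, 1207 and 1125 CPM just outside. In nuclei with 3 or more marker UMIs that 1 exclusion UMI kept out, they summed to 2426, 3899, 3195, 2875, 1519 and 1500 CPM.

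The 7 markers were not kept in equal proportion, given here as levels with no test. P2ry12 was at 1007, 1068, 1060, 1403, 1716 and 1775 CPM. Tmem119, a microglial membrane protein of the homeostatic state, was at 345, 457, 463, 519, 756 and 756 CPM. Slc2a5, the fructose transporter GLUT5, was at 76.3, 113, 61.3, 133, 235 and 288 CPM, and Upk1b, a tetraspanin, at 18.2, 40.5, 18.0, 50.8, 82.5 and 103 CPM. These were lowest in tau libraries, whereas Siglech, a sialic acid-binding lectin, was at 2700, 1962, 2536, 2574, 2490 and 2580 CPM. Siglech gave 54.7%, 42.9%, 49.1%, 43.0%, 36.4% and 36.5% of the marker UMIs that admitted the members. The members of the tau libraries thus rested more on Siglech UMIs than those of the E4 libraries.

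Genes outside the rule were tested on UMIs summed over the members of each library, with edgeR's quasi-likelihood test in an additive fit of background and TREM2 genotype over 9293 genes. The error of this fit is the part of the response to TREM2 that differs between backgrounds, with 2 residual degrees of freedom. For each gene it was drawn towards a value shared across genes, with 32.9 prior degrees of freedom. The p-values thus rest mostly on this shared value, and not on replicate libraries. A gene is said to have risen or fallen when its Benjamini-Hochberg adjusted p was 0.05 or less. All fold changes below are differences on the log2 scale with their standard error (SE).

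TREM2 deletion was read first through Trem2 itself. Trem2 (ENSMUSG00000023992, GRCm38 17:48346401-48354147) was at 1076, 693, 1060, 485, 995 and 378 CPM, so every TREM2- library lay below every TREM2+ library and transcripts assigned to the gene remained in all TREM2- libraries. Its log2 fold change was -1.06 (SE 0.12, edgeR adjusted p = 8.5e-07). By background the log2 ratio was -0.63 (-0.84 to -0.42) in P301S/E4, -1.13 (-1.28 to -0.98) in P301S/EKO and -1.40 (-1.51 to -1.28) in E4. Apoe was at 0 in members by the rule. Over all passing nuclei it was at 1184, 811, 14.2, 9.1, 187 and 239 CPM, with the P301S/EKO libraries lowest. Mapt, which encodes tau, was at 14.5, 22.4, 37.0, 28.8, 12.9 and 10.5 CPM in members, and whether transgene reads count towards it was not tested.

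Across backgrounds TREM2 deletion changed few genes. Only 12 of 9293 genes passed the test (0.129%), 5 higher (0.0538%) and 7 lower (0.0753%) in TREM2-, and 602 were at or under 0.05 before adjustment. Beside Trem2, the lower genes were Ccdc80, Fgr, Lrguk, Treml2, Zfyve21 and Rassf4. The higher ones were AI661453, 4930544F09Rik, Gm26870, Mbp and Abcg1.

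Ccdc80, which encodes a secreted matrix protein, was at 69.0, 12.6, 96.4, 23, 76.0 and 20.1 CPM. Each TREM2- library was below each TREM2+ library, and the log2 fold change was -2.00 (SE 0.21, edgeR adjusted p = 3.1e-07). Fgr, a Src-family kinase, was at 145, 32.1, 95.5, 25.9, 14.6 and 9.26 CPM and fell by 1.63 on the log2 scale (SE 0.26, adjusted p = 0.00077). Its log2 ratio was -2.18 in P301S/E4 and -1.88 in P301S/EKO but -0.65 in E4, where its level was low with TREM2 too, and its TREM2+ and TREM2- levels overlapped. Abcg1, a cholesterol exporter, was at 142, 289, 126, 161, 90.1 and 141 CPM and rose by 0.66 (SE 0.14, adjusted p = 0.038). Its TREM2+ and TREM2- levels overlapped across backgrounds while each background had the higher level in TREM2-. Mbp, the myelin basic protein gene, was at 40.0, 120, 62.2, 98.7, 32.4 and 63.6 CPM and rose by 0.98 (SE 0.18). The oligodendrocyte list moved with it, at 167, 196, 149, 219, 123 and 164 CPM, and its part in the result was not tested.

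Besides Trem2, 2 of these genes lie within 1 megabase of it on chromosome 17. Treml2 (17:48299498-48312533), a TREM-like receptor gene, was at 29.1, 6.99, 24.3, 2.88, 10.2 and 3.62 CPM and fell by 2.05 (SE 0.44, edgeR adjusted p = 0.038). AI661453 (17:47436615-47470638) had 0, 16, 1, 16, 4 and 44 UMIs, 76 in TREM2- against 5 in TREM2+, a pooled ratio of 11.6 (95% counting interval 4.76 to 36.8). It rose in the fit with adjusted p = 0.00067. The other 7 of the 9 neighbouring genes tested there did not pass. Without the background term Ccdc80 alone was called, and Trem2 had an edgeR adjusted p of 0.35. The count was 7 without P301S/E4/TREM2+, 6 without P301S/E4/TREM2-, and 29 without either E4 library.

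No list had more than 2 genes called with TREM2. In the homeostatic list, which leaves out the rule genes, 1 of 31 genes tested passed, and that was Trem2. The list's median log2 fold change was 0.08, against 0.00 over all genes tested. None of 9 stage 1 DAM genes, 22 stage 2 DAM genes, 34 interferon genes, 15 MHC class I genes or 12 TGF-beta genes passed. Their medians were 0.02, -0.11, -0.08, -0.22 and 0.03. The fit tests only a shift shared by the backgrounds. In P301S/E4, P301S/EKO and E4 the TREM2- over TREM2+ log2 ratios of the summed lists were 0.20, -0.08 and 0.20 for stage 1. They were -0.12, -0.25 and 0.17 for stage 2, and 0.38, -0.36 and -0.27 for interferon. For MHC class I they were -0.05, -0.52 and 0.09, and for TGF-beta -0.07, -0.07 and -0.005. Each compares 1 library with 1 library. Summed homeostatic levels were 29602, 29789, 32697, 33436, 41715 and 46065 CPM, close within each tau background and apart between backgrounds.

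Many more genes passed for tau P301S with APOE4 against APOE4 alone. In P301S/E4 against E4, 589 of 9293 genes passed (6.34%), of which 288 were lower (3.1% of the genes tested) and the rest higher (3.24%). The median over all genes was -0.01. The sums here are scaled to each library's member UMIs, so they do not show the number of members or the UMIs per nucleus. Those are given above by library. With library sizes alone as scaling, 555 genes passed, 371 higher and 184 lower, and the median over all genes was 0.08. The count was 97 without P301S/E4/TREM2-, 314 without E4/TREM2- and 385 without E4/TREM2+. A test of members with 1000 or more UMIs gave 305 of 6335 genes.

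Most homeostatic genes outside the rule fell. Of 31 tested, 18 fell, none rose and 13 did not pass, with a median log2 fold change of -0.68, or -0.68 also with Gpr165 at its bound. The count was 6 of 31 without P301S/E4/TREM2-, where the median was -0.72. With library sizes alone as scaling 17 fell and 2 rose. Among 45 homeostatic ("Ground") markers in the authors' deposited table that are not rule genes, 29 fell and none rose, with 11, 15 and 18 falling without P301S/E4/TREM2-, E4/TREM2- and E4/TREM2+. That list was chosen by the authors on these libraries and is not independent evidence of its direction.

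The chemokine and growth factor receptors of the homeostatic state were among them. Cx3cr1 (ENSMUSG00000052336, 9:119901616-120069879), the fractalkine receptor, was at 1777, 1804, 2121, 1814, 3245 and 3584 CPM. Both P301S/E4 libraries, and both P301S/EKO libraries, lay below both E4 libraries, and the log2 fold change was -1.01 (SE 0.14, edgeR adjusted p = 2.4e-06). Csf1r, the survival receptor of microglia, was at 1461, 1786, 1897, 1943, 2548 and 2568 CPM and fell by 0.74 (SE 0.13, adjusted p = 0.00023). P2ry13, an ADP receptor, was at 222, 200, 216, 284, 397 and 508 CPM and fell by 1.24 (SE 0.17). Gpr34, a lysophosphatidylserine receptor, fell by 0.98 (SE 0.15). Tgfbr1, the type I TGF-beta receptor, was at 1421, 1465, 1942, 1674, 2514 and 2172 CPM and fell by 0.77 (SE 0.13).

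Other genes of the list fell too. Cst3, which encodes cystatin C, was at 8561, 7919, 10052, 10408, 13729 and 16423 CPM and fell by 0.95 (SE 0.14, edgeR adjusted p = 1.4e-05). Sparc, a matricellular protein gene, fell by 0.98 (SE 0.14). Gpr165, an orphan receptor gene, had 0 UMIs in both P301S/E4 libraries, 5 and 16 in P301S/EKO and 50 and 66 in E4. With 3 counts over the P301S/E4 group as the limit, it was at least 8.83-fold lower than in E4. Gp9, Smpdl3b and Hlf fell by 3.90, 3.23 and 2.18. Hlf encodes a transcription factor. The transcription factor genes Mef2c (2552 to 3169 CPM), Sall1 and Maf did not pass.

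**Figure D2:**
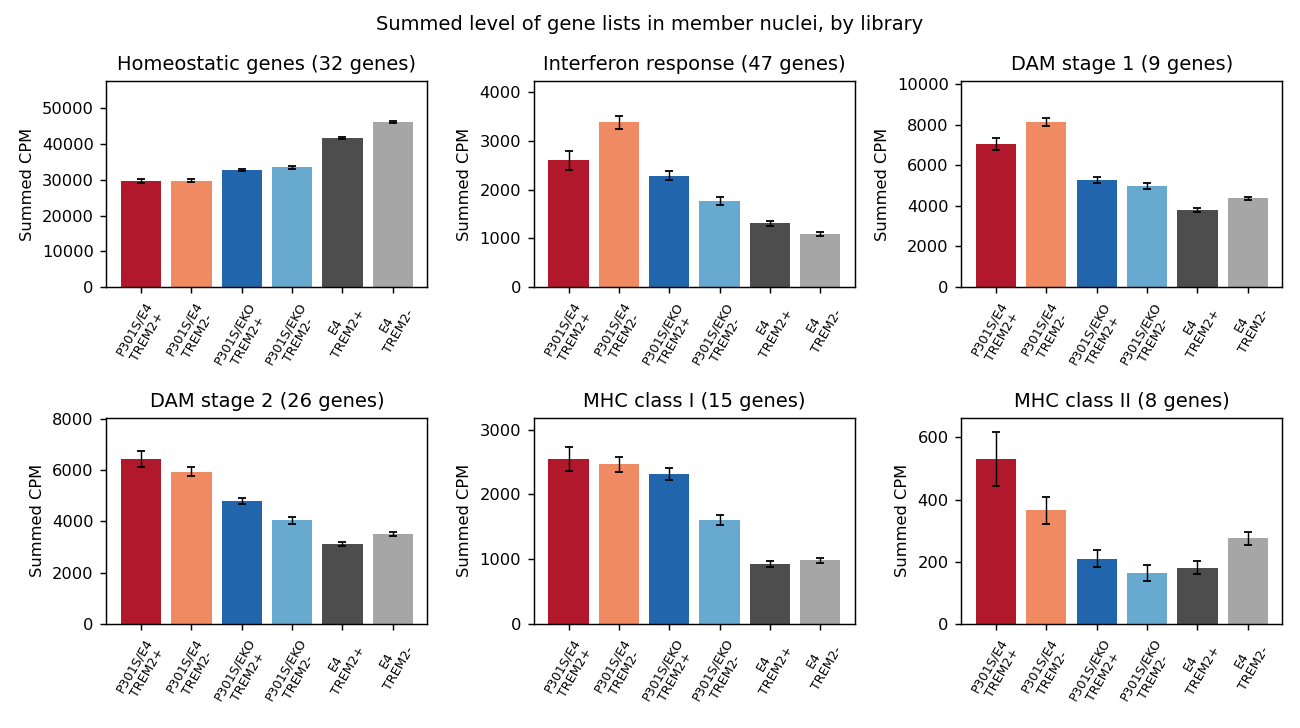
Summed level (y axis, CPM) of 6 gene lists in member nuclei of each library, with rule genes left out of each list. Whiskers are 95% intervals for counting error. Homeostatic genes are lower in the 4 tau libraries (29602 to 33436 CPM) than in the E4 libraries, and interferon, DAM and MHC class I genes are higher.

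The interferon response list moved the other way, although Oasl2 and Ifi204 had been used to keep interferon-high nuclei out. Of 34 genes tested, 30 rose, none fell and 4 did not pass, with a median log2 fold change of 1.53. The count was 8 of 34 without P301S/E4/TREM2- and 22 of 37 without E4/TREM2-. Summed over 47 genes the level was 2602, 3386, 2286, 1778, 1315 and 1088 CPM.

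The signalling factors of the pathway rose with its products. Stat2, a subunit of the interferon-activated complex ISGF3, was at 90.8, 175, 87.4, 70.0, 41.5 and 39.5 CPM. Both P301S/E4 libraries lay above both E4 libraries, and it rose by 1.74 (SE 0.22, edgeR adjusted p = 7.6e-07). Irf9, also of ISGF3, rose by 1.33 (SE 0.19), and Irf7, an amplifier of interferon production, by 2.86 (SE 0.51). Oas2, a synthetase that activates RNase L, had 10, 44, 24, 23, 1 and 1 UMIs. That was 54 in P301S/E4 against 2 in E4, a pooled ratio of 118 (95% counting interval 31.2 to 1001). Ifit3, which acts against viral RNA, was at 3.63, 33.5, 9.92, 14.4, 1.62 and 1.61 CPM and rose by 3.58 (SE 0.65). Its P301S/E4/TREM2+ value rested on 1 UMI. Isg15, a ubiquitin-like modifier, had 3, 10, 8, 10, 2 and 7 UMIs and rose by 2.43 (SE 0.72, adjusted p = 0.033). Mx1, Usp18 and Ifit2 rose by 2.45, 2.67 and 3.42. Ifi207, Ifi213, Trim30a and Trim30d rose too, but belong to families with close copies between which reads may be split.

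Promoters are shown for 3 risen interferon genes and for Cx3cr1. The core of the interferon-stimulated response element, written as GAAA, any 2 bases and GAAA again, was searched on both strands from 250 bases before to 50 bases after each RefSeq start site. It was found in 12 of 21 risen interferon genes with an entry (57.1%), in 0 of 14 fallen homeostatic genes, and in 1079 of 27025 genes in all (3.99%). The first share describes a list chosen for its interferon response, most of which rose, and not the response to tau. With 14 genes, 0 matches cannot be told from the share over all genes. The 3 interferon genes shown hold matches, whereas Irf7, Irf9 and Ifit2 had none. Overlapping matches were merged. The 200 bases before the start site follow, 5′ to 3′ on the strand of the gene (RefSeq, GRCm38.p6), with matches on either strand in capitals.
Isg15, chr4:156200819-156201018, minus strand: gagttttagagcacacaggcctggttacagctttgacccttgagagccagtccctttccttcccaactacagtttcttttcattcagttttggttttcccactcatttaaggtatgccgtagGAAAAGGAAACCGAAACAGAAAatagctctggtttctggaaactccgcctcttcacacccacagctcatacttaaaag
Ifit3, chr19:34583329-34583528, plus strand: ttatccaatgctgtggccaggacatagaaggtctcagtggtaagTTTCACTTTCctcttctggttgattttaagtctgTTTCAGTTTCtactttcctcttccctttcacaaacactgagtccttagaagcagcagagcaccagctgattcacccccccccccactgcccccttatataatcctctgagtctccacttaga
Ddx60, chr8:61927887-61928086, plus strand: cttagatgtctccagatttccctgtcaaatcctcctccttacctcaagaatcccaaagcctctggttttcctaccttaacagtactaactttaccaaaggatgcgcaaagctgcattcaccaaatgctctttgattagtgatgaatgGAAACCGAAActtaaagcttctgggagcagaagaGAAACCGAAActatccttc
Cx3cr1, chr9:120068297-120068496, minus strand: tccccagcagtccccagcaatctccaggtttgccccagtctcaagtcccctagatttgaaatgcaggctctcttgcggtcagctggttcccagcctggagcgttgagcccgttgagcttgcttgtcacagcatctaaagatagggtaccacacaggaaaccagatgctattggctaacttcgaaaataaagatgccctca
Ddx60, an RNA helicase of the antiviral response, was at 54.5, 79.7, 48.7, 38.3, 29.1 and 26.6 CPM and rose by 1.27 (SE 0.28, edgeR adjusted p = 0.0022). Cx3cr1 had no match in its promoter. A match is a description of these letters, and no binding was measured.

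Interferon transcripts were also counted nucleus by nucleus. After thinning the members with at least 500 UMIs (325, 748, 1151, 1161, 2002 and 2846) to that depth, 66.5%, 75.8%, 61.1%, 52.1%, 47.1% and 39.8% of members held an interferon list UMI. In 108 nuclei with at least 10 neuron marker UMIs, which should lack most of it, the share was 10.2% (median 3322 UMIs before thinning). Unthinned, the members' shares were 78.2%, 87.4%, 77.3%, 61.9%, 55.0% and 53.2%. The highest shares were in the P301S/E4 libraries and the lowest in the E4 libraries.

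MHC class I genes, which present cytosolic peptides, rose with the interferon genes. Of 15 tested, 8 rose and none fell, with a median of 1.22, and the count was 5 and the median 0.73 without P301S/E4/TREM2-. The median was 0.72 over 14 genes with the rule on thinned nuclei. H2-K1, a classical heavy chain, was at 661, 614, 491, 314, 187 and 166 CPM and rose by 1.78 (SE 0.15, edgeR adjusted p = 2.5e-10). H2-D1 rose by 1.72 (SE 0.16), its partner B2m by 1.22 (SE 0.16) and the peptide transporter gene Tap1 by 1.27 (SE 0.26). Nlrc5, the transactivator of the class, rose by 3.40 (SE 0.48). H2-Q6 and H2-Q7 rose by 4.33 and 3.41, but are close copies of each other. The immunoproteasome genes Psmb8 and Psmb9 did not pass. Nlrc5 is also on the interferon list, and H2-D1 and B2m on the stage 1 DAM list.

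**Figure D3:**
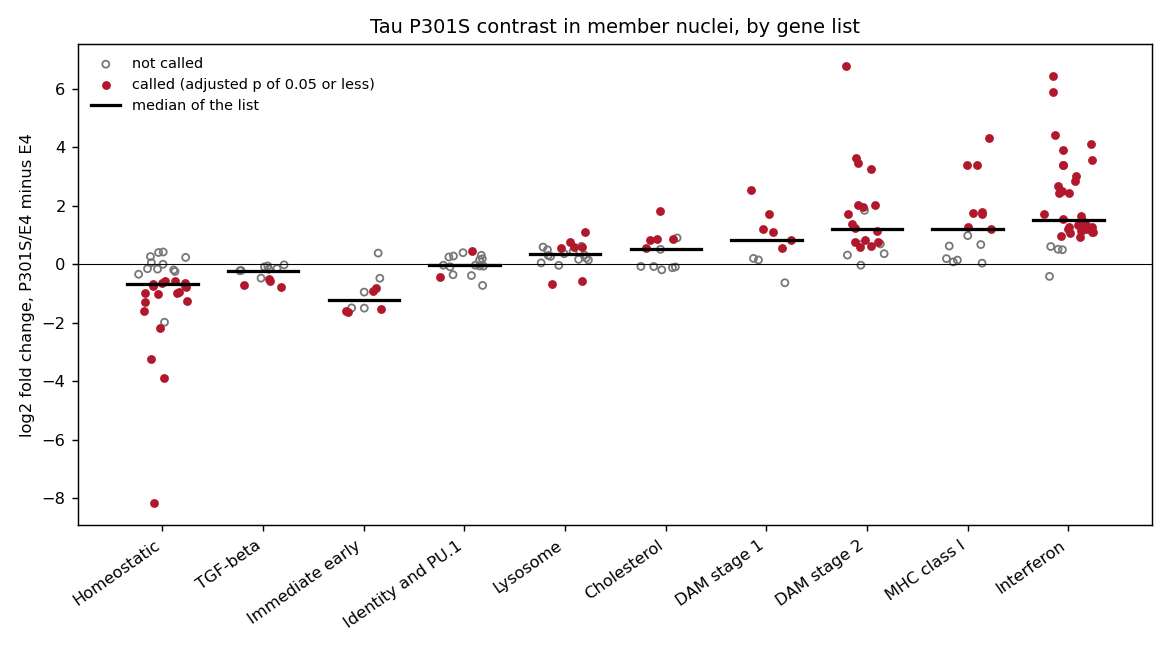
Log2 fold change of P301S/E4 minus E4 in member nuclei (y axis) for the tested genes of 10 lists (x axis), with rule genes left out. Each point is a gene, filled when called, and the bar is the list's median. Homeostatic and immediate early genes lie mostly below 0 (medians -0.68 and -1.22, the latter -0.38 without P301S/E4/TREM2-), and DAM stage 2, MHC class I and interferon genes mostly above it (medians 1.20, 1.22 and 1.53).

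Most DAM genes tested also rose, in nuclei with 0 UMIs of Gpnmb, Lpl, Itgax, Cst7, Spp1 and Apoe. Stage 2 genes outside the rule summed to 6583, 6398, 4821, 4115, 3142 and 3441 CPM in members with 3 marker UMIs. In nuclei kept out by 1 exclusion UMI the sums were 6500, 6231, 4805, 4446, 3049 and 3728 CPM. The rule thus did not set members far apart from those nuclei in this list. Of 9 stage 1 genes 6 rose, with a median of 0.84, and of 22 stage 2 genes 16 rose, with a median of 1.20. None fell in either. The counts were 3 and 9 without P301S/E4/TREM2-. Stage 2 gave 8 without E4/TREM2+ and 10 without P301S/E4/TREM2+.

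Lyz2, a lysozyme gene of stage 1, was at 440, 499, 224, 155, 64.7 and 85.4 CPM. Both P301S/E4 libraries were highest and both E4 libraries lowest, and it rose by 2.56 (SE 0.18, edgeR adjusted p = 2.6e-12). The lysosomal proteases Ctsb and Ctsd rose by 1.10 (SE 0.14) and 0.56 (SE 0.13), and Timp2, a metalloprotease inhibitor gene, by 0.84 (SE 0.16). Tyrobp, which encodes the TREM2 adaptor DAP12, did not pass and was at 610, 496, 476, 426, 423 and 468 CPM. Fth1, the ferritin heavy chain gene, did not pass either.

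Among stage 2 genes, Axl, a receptor for apoptotic cells, had 27, 54, 60, 13, 2 and 1 UMIs. That was 81 in P301S/E4 against 3 in E4, a pooled ratio of 118 (95% counting interval 39.0 to 585). Csf1, a ligand of CSF1R, was at 87.2, 79.7, 41.5, 14.4, 9.17 and 7.65 CPM and rose by 3.27 (SE 0.34, edgeR adjusted p = 9.4e-09). Igf1, a growth factor gene, had 8, 16, 12, 0, 1 and 7 UMIs and rose by 3.65 (SE 0.72). Its 0 in P301S/EKO/TREM2- allows up to 2.88 CPM. Myo5a, a motor protein gene, was at 149, 143, 74.8, 49.8, 12.4 and 12.5 CPM and rose by 3.46 (SE 0.25). Cd63, a tetraspanin of late endosomes, was at 392, 461, 210, 194, 132 and 118 CPM and rose by 1.71 (SE 0.15), and Cd9 by 0.82 (SE 0.15). Outside the lists, Cd300lf, a lipid-binding inhibitory receptor gene, was at 69.0, 72.7, 35.2, 45.0, 2.70 and 2.82 CPM and rose by 4.53 (SE 0.39). The kinase gene Fgr, which fell with TREM2 deletion, rose by 2.59 (SE 0.34).

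Other groups changed in part. Of 10 immediate early genes 5 fell and none rose, with a median of -1.22, which was -0.38 without P301S/E4/TREM2-. Jun, an AP-1 subunit, was at 47.2, 46.1, 46.0, 95.8, 98.2 and 143 CPM and fell by 1.60 (SE 0.24). Btg2, an antiproliferative factor, fell by 1.53 (SE 0.19), and Zfp36, which promotes mRNA decay, by 1.62 (SE 0.24, all edgeR adjusted p at most 1.4e-05). None of the 10 passed without P301S/E4/TREM2-, and 3 without E4/TREM2-. Of 13 mitochondrial transcripts 11 fell, with a median of -1.14. The share of mitochondrial UMIs given above is made up of these same transcripts and is not a separate observation. It was 1.04% in P301S/EKO/TREM2+, close to the 1.11% in E4/TREM2+, and its part in the other results was not tested.

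In the TGF-beta list 4 of 12 fell and none rose: Tgfbr1, Tgfb1, and the integrin genes Itgav and Itgb5, whose products activate TGF-beta. The receptor gene Tgfbr2 and the Smad genes did not pass. The count was 1 without P301S/E4/TREM2- or E4/TREM2-, and 2 without P301S/E4/TREM2+. Of 12 cholesterol genes 5 rose, with none called without P301S/E4/TREM2- and 3 without either E4 library. Abca1, a cholesterol exporter, was at 720, 844, 528, 496, 437 and 380 CPM and rose by 0.87 (SE 0.14). Abcg1, Soat1, which esterifies cholesterol, and the lipid droplet gene Plin2 rose by 0.83, 0.86 and 1.84. Of 20 lysosomal genes 5 rose (Ctsb, Ctsd, Ctsz, Ctsl and Grn) and 2 fell, among them Lgmn. The number that rose was 1 without P301S/E4/TREM2-, 2 without E4/TREM2+ and 3 without E4/TREM2-. In the complement list, C4b rose by 4.06 (SE 0.42), though its reads may be shared with a close copy. C1qa, C1qb and C1qc did not pass, and C1qa was at 4339, 3732, 3795, 3310, 3775 and 4144 CPM.

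Genes that mark microglia whatever their state were mostly level. Of 16 identity and PU.1-related genes, Ly86 rose by 0.45 (SE 0.14) and Laptm5 fell by 0.43 (SE 0.14), and the median was -0.03. Of the astrocyte markers, 2 rose: Gfap by 2.61 (SE 0.40) and Slc1a3, a glutamate transporter gene, by 0.69 (SE 0.17). The 8 astrocyte markers summed to 520, 396, 324, 531, 261 and 297 CPM, so every tau library was above both E4 libraries, and the part of astrocyte RNA in these results was not tested.

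The APOE4 contrast, P301S/E4 against P301S/EKO, uses the same P301S/E4 libraries as the tau contrast, so the sets of changes are not independent. It called 62 of 9293 genes (0.667%), 38 higher (0.409%) and 24 lower (0.258%) with APOE4. No gene passed without P301S/E4/TREM2-, although 645 were then at or under 0.05 before adjustment, and DESeq2 called 10 in all 6 libraries. The count was 24 without P301S/E4/TREM2+, 31 without P301S/EKO/TREM2- and 95 with Apoe left out of the exclusion genes. In the homeostatic list 0 of 31 passed, with a median of -0.19 against 0.00 over all genes. Of the authors' 45 Ground markers, chosen on these libraries, 2 fell (Csmd3 and Gm43221), with a median of -0.29, and 5 fell with Apoe left out of the exclusion genes. None fell without P301S/E4/TREM2- or P301S/EKO/TREM2+, and 1 without each of the other libraries but P301S/E4/TREM2+.

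MHC class II genes, which present peptides taken up from outside, were higher with APOE4. Of 6 tested, 4 rose, with a median of 2.04. The count was 0 without P301S/E4/TREM2-, 1 without P301S/E4/TREM2+ and 2 without P301S/EKO/TREM2-. DESeq2 called 0 of 6. With fewer nuclei, fewer of these genes passed the filter: the median was 0.69 over 4 genes with 5 or more marker UMIs, 0.33 over 4 in members with 1000 or more UMIs and 0.066 over 3 with the rule on thinned nuclei, and 1 was called in each. H2-Aa (ENSMUSG00000036594, 17:34282744-34287823) was at 58.1, 53.1, 11.7, 4.79, 15.1 and 16.5 CPM and rose by 2.71 (SE 0.41, edgeR adjusted p = 0.00025). Both P301S/E4 libraries lay above all others. H2-Eb1 rose by 2.25 (SE 0.44), H2-Ab1 by 1.85 (SE 0.38) and the invariant chain gene Cd74 by 2.23 (SE 0.31). Cd74 was at 240, 109, 41.5, 24.9, 26.4 and 45.9 CPM, so TREM2+ and TREM2- differed within P301S/E4. The antigen-loading genes H2-DMa and H2-DMb1 did not pass. In the tau contrast H2-Aa, H2-Eb1 and Cd74 rose by 1.71, 1.27 and 1.98, and H2-Ab1 did not pass at 0.95 (SE 0.31, adjusted p = 0.064).

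The thinned share of members with a class II UMI was 21.8%, 15.8%, 9.30%, 5.94%, 8.74% and 12.1%. It was 0 of 108 neuron-marker nuclei, which allows up to 2.78%. Unthinned it was 31.4%, 25.9%, 15.6%, 10.5%, 11.3% and 18.5%. The P301S/EKO and E4 shares overlapped, while both P301S/E4 shares were the highest of the 6.

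**Figure D4:**
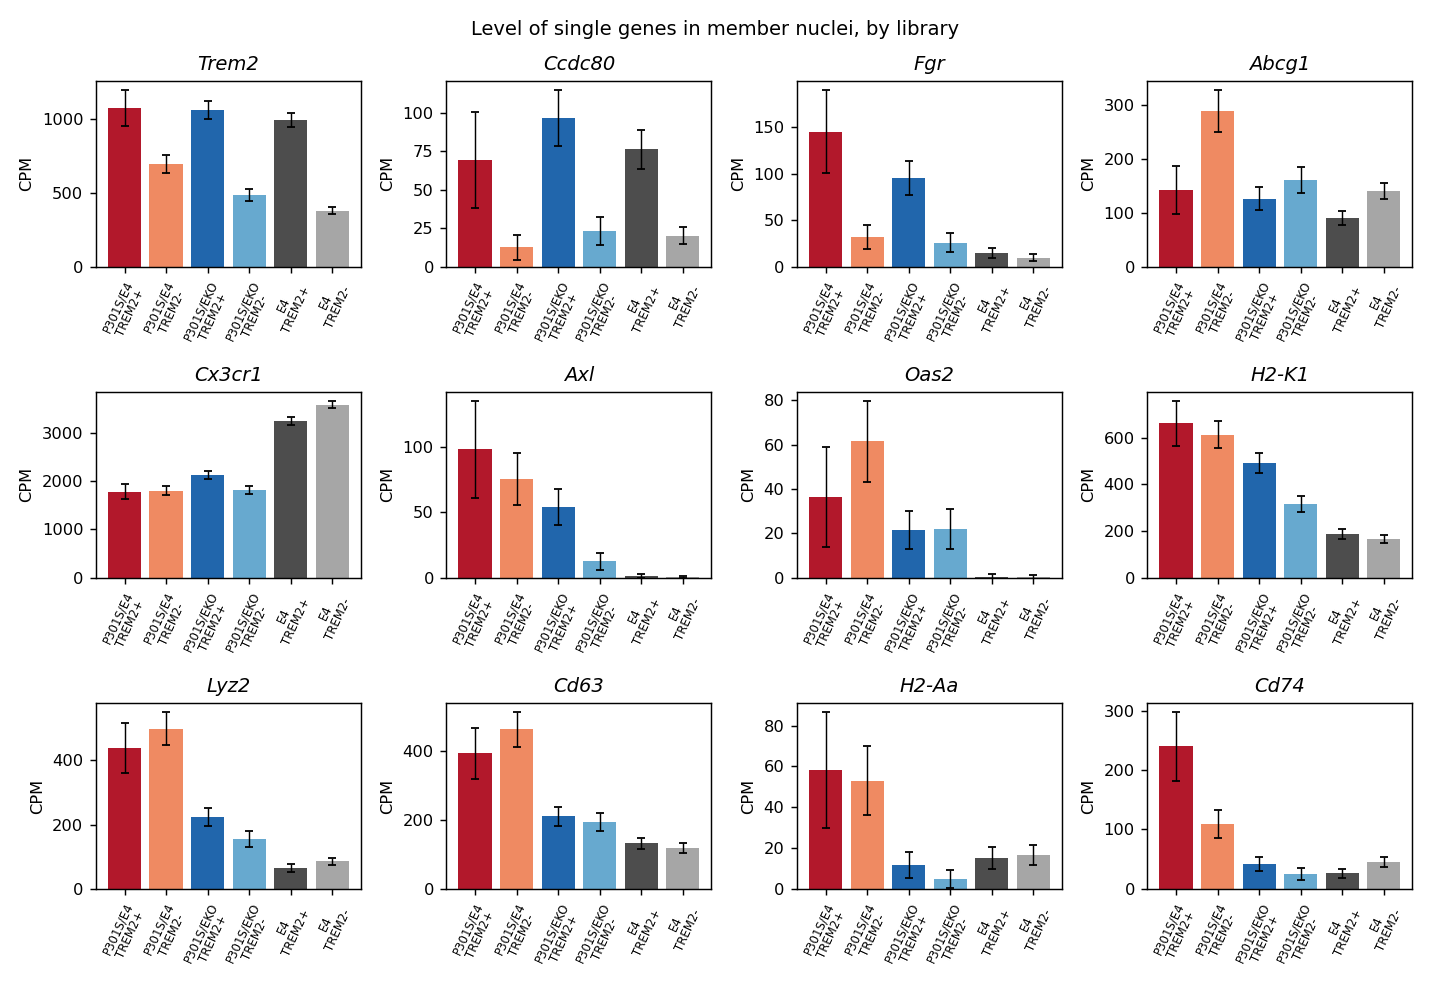
Level (y axis, CPM) of 12 genes in member nuclei of each library, with 95% intervals for counting error as whiskers. Trem2 and Ccdc80 are lower in every TREM2- library than in every TREM2+ library, Cx3cr1 is lower in the 4 tau libraries, and H2-Aa and Cd74 are highest in the P301S/E4 libraries.

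Several DAM genes rose with APOE4 as well. Of 9 stage 1 genes Lyz2, Ctsb and Ctsd rose, by 1.30 (SE 0.17, edgeR adjusted p = 4.6e-05), 0.68 (SE 0.14) and 0.67 (SE 0.13). Of 22 stage 2 genes 6 rose: Cd74, Csf1 by 1.66 (SE 0.32), Axl by 1.57 (SE 0.32), Myo5a by 1.23 (SE 0.22), Cd63 by 1.08 (SE 0.16) and Cd83, a stabiliser of MHC class II, by 1.03 (SE 0.25). Abca1 rose by 0.60 (SE 0.14). Neither set had a call without P301S/E4/TREM2-. Stage 1 had none and stage 2 had 2 without P301S/EKO/TREM2-, and stage 2 had 2 without P301S/E4/TREM2+. In the interferon list 3 of 34 rose, Slfn2, Trim30a and Trim30d, with a median over the list of 0.64. The count was 1 without P301S/E4/TREM2+ and 0 without P301S/EKO/TREM2- or P301S/E4/TREM2-, and the median was 0.27 without the last of these. In MHC class I, H2-K1 rose by 0.67 (SE 0.15), and no longer passed when any 1 of these 3 libraries was left out. Outside the lists, Dna2, a helicase-nuclease gene, rose by 1.45 (SE 0.29) and Gpr65, a proton-sensing receptor gene, by 1.48 (SE 0.33).

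The lowest log2 fold change among the called genes was that of Lig4, the DNA ligase of end joining, at 10.9, 4.19, 75.7, 69.0, 11.3 and 10.5 CPM. Both P301S/EKO libraries stood above the other 4, and it fell by 3.54 (SE 0.46, edgeR adjusted p = 3.8e-05). Atp1b1, Gpm6b, Kif5c and Chgb, which neurons or other glia express strongly, fell by 1.97, 1.89, 1.70 and 2.00. Atp1b1 was at 32.7, 19.6, 68.5, 99.7, 69.6 and 101 CPM. With members holding 2 or more neuron marker UMIs left out, a setting added after the data had been seen, 73 genes passed, 61 of them among the 62. Of the 13 mitochondrial transcripts 8 fell, with a median of -0.74, or -1.15 to -0.31 with 1 library left out, and none passed without either P301S/E4 library or without P301S/EKO/TREM2+.

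Whether TREM2 deletion acted differently within a background cannot be tested with 1 library each. Axl was lower in TREM2- members of P301S/EKO, with a log2 ratio of -2.12 (95% counting interval -3.11 to -1.24), and was at -0.38 (-1.07 to 0.34) in P301S/E4. Csf1 was at -1.53 (-2.48 to -0.66) in P301S/EKO and -0.13 (-0.84 to 0.62) in P301S/E4. Slfn8, of the interferon list, was at 145, 284, 192, 169, 239 and 99.1 CPM, higher in TREM2- within P301S/E4 (0.96, 0.47 to 1.49) and lower within E4 (-1.27, -1.50 to -1.04).

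The other 22494 passing nuclei of the same libraries gave values to set beside the members, with no test between the sets. In those nuclei TREM2 deletion called 17 genes, tau 1719 and APOE4 257, of 11680 tested. The tau contrast had a median of -0.63 over homeostatic genes and 1.36 over interferon genes there, against -0.68 and 1.53 in members. Over stage 2 DAM genes the median was 0.98 there (25 tested), against 1.20 in members (22 tested). Cx3cr1 was at -0.95 and Cd63 at 1.52, against -1.01 and 1.71. Cd74 was at -0.16 against 1.98. C4b was at 0.44 against 4.06.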

How the data were processed

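Nuclei of 6 libraries, 1 per genotype, were analysed. The authors deposited raw UMI counts per gene and nucleus from Cell Ranger 3.0.1 mapped to mm10, per the file headers and the labels' protocols, with 31053 features. A score (log fold change of unstated base) in the authors' deposited marker table served only to pick their 45 Ground genes. A few results are not reported here because their genes are withheld. Members and lists were chosen with earlier results of these data known.

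Counts were summed over the members of each library. Genes passing edgeR's default expression filter were fitted with background and TREM2 genotype as terms (edgeR 4.0.16, limma 3.58.1, R 4.3.3, TMM scaling, quasi-likelihood test), with p-values adjusted over all 9293 genes by Benjamini-Hochberg and 0.05 as threshold. Of the 17 rule genes, the 7 markers stayed in the fit and their tests are not reported. The fit was run on simulated counts with planted changes, given the same spread for every gene, to check their direction. That setting cannot show how often spread that differs between genes or mice gives false calls. DESeq2 1.42.0 was an alternative, and Python 3.11.15, pandas 2.3.3 and scipy 1.17.1 gave intervals and shares. The limit for 0 UMIs is 3 counts of the total, and exact and Poisson 95% intervals cover counting error only.

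Named genes were, per contrast, the 8 highest and the 8 lowest called genes with a mean of at least 20 CPM. Each list added its called genes and its 3 most abundant members. Some genes given as not passing, Spi1, the cell type markers and 4930544F09Rik were named after their values had been seen. Gene locations are from GENCODE vM21 (GRCm38). No doublet caller was run. Alternatives varied scaling, filter, tool, membership rule, depth, the background term and the libraries; those on neuron markers and on members with 1000 or more UMIs were chosen after seeing the data.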

Additional observations from a re-analysis of the deposited data

Results flagged for a closer look

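Within a background, TREM2- over TREM2+ log2 ratios of summed list levels ran in opposite directions for 5 lists. Each ratio compares 1 library with 1 library, its interval covers counting error only, lists were taken where ratios of at least 0.2 each way had intervals clear of 0, and the difference between backgrounds was not tested. The interferon list had 0.38 in P301S/E4 (95% counting interval 0.26 to 0.50), -0.36 in P301S/EKO (-0.45 to -0.28) and -0.27 in E4 (-0.35 to -0.19). The MHC class II list had 0.60 in E4 (0.41 to 0.80), -0.54 in P301S/E4 (-0.84 to -0.24) and -0.36 in P301S/EKO (-0.65 to -0.067). The mitochondrial list had 0.61 in P301S/E4 and -0.44 in P301S/EKO. The astrocyte marker list had 0.71 in P301S/EKO and -0.39 in P301S/E4. The purinergic signalling list had 0.21 in P301S/EKO and -0.24 in P301S/E4.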

How the results depend on the processing

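No paired analysis was possible because each genotype is 1 library and the titles carry different numbers. The fold changes followed here were those called among genes picked by the naming rule, and H2-Ab1 with tau. Other genes given as not passing were not followed, nor were Csmd3 and Gm43221. None of those followed turned its direction under the alternatives run. Some list medians did: MHC class II with tau was 1.11, and -0.033 over 3 genes with the rule on thinned nuclei, 0.16 with 5 or more marker UMIs and 0.27 with 1000 or more UMIs. With TREM2, medians near 0 changed sign, such as interferon from -0.08 to 0.06 without the background term and DAM stage 1 from 0.02 to -0.14 without E4/TREM2+. The TREM2 count of 12 called genes was 19 with DESeq2 size factors in edgeR, 3 with DESeq2's test, 47 with no expression filter, 2 with 5 or more marker UMIs, 3 with the rule on thinned nuclei, 35 without members over 2 times the median UMI, 4 with 1000 or more UMIs, 1 without the background term, and 6 to 29 leaving out each library. The tau count of 589 was 201 with DESeq2's test, 291 with 5 or more marker UMIs, 225 with thinned nuclei, 305 with 1000 or more UMIs, and 97 to 599 leaving out each library. The APOE4 count of 62 was, in the order used for TREM2, 10 with DESeq2's test, 97, 17, 5, 103, 8 and 19, then 95 with Apoe left out of the exclusion genes and 0 to 72 leaving out each library. A background left with 1 library was assumed to vary like the others. Library sizes alone as scaling moved the higher share of tau calls from 51.1% to 66.8%. Member shares, in the order of libraries of the report, were 3.96%, 7.14%, 20.4%, 23.8%, 42.1% and 49.1% thinned, and 1.70%, 3.78%, 13.9%, 9.21%, 22.8% and 37.4% with 5 or more marker UMIs. With Apoe left out of the exclusion genes they were 9.30% and 17.6% in P301S/E4 and 52.5% and 66.4% in E4. Stricter membership left fewer nuclei and fewer genes to test; otherwise the cause was not tested. P301S/E4/TREM2+, with 325 members, limits depth most.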
